A study of Mus musculus with 2 samples.

Results

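The 10 genes described here encode the molecules that display peptides to T cells. They were taken by gene symbol and fall into 3 classes. The class I genes are H2-K1, H2-D1 and B2m, the peptide loading genes are Tap1, Tap2 and Tapbp, and the class II genes are H2-Ab1, H2-Aa, H2-Eb1 and Cd74. All 10 were listed among the 15574 genes with a read in at least 1 library. The study sequenced messenger RNA from mouse T helper 17 (Th17) cells to find genes regulated by CREB, the cyclic AMP-responsive transcription factor encoded by Creb1. Naive T cells of C57BL/6 background, labelled CREB KO or wildtype, were grown for 6 days with IL6, TGFb, IL1b and IL23 and then stimulated through CD3 for 4 h. Each genotype was sequenced once. The scaled size of the knockout-labelled library was 24002138 reads and that of the wildtype library 26454714 reads. No source used here says how the genotype labelled CREB KO was made, or in which cells.

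Class I molecules pair a heavy chain, from H2-K1 or H2-D1 in this strain, with beta-2 microglobulin, from B2m. They are found on nearly all nucleated cells, T cells included, and show peptides from the cytosol to CD8 T cells. Those peptides reach the endoplasmic reticulum through the TAP transporter, a pair of Tap1 and Tap2 subunits, and tapasin, from Tapbp, bridges the transporter to the empty class I molecule. Class II molecules pair an alpha with a beta chain and show peptides from endosomes to CD4 T cells. They are made mainly by B cells, dendritic cells and macrophages, and mouse T cells are known to make little of them. Cd74 encodes the invariant chain, which guards the class II groove until the endosome. C57BL/6 mice have the class II pair H2-Aa and H2-Ab1, while a defect in the alpha chain gene of the other pair leaves the H2-Eb1 product without its partner. The promoters of class I, B2m and class II genes share a module of X and Y boxes. RFX factors, CREB or ATF factors and NF-Y are known to bind there, with NLRC5 as the coactivator for class I and CIITA for class II.

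The upstream sequences show this module in letters, and they are printed because the study is about a factor of the family known to bind it. RefSeq windows (build GRCm38.p6) were found for 7 of the 10 members, and not for Tap2, H2-Ab1 and Cd74. The 250 bases before each start were searched on both strands for the letters TGACG (the core of a cyclic AMP response element, CRE), TGACGTCA (the full CRE, which holds that core on each strand), CCAAT (the core of the Y box, which reads ATTGG on the other strand), an interferon response core (GAAA, any 2 bases, GAAA) and the NF-kappaB site of the class I enhancer (GGGGA followed by TTCCCC). Capitals mark every match. The long stretches are H2-K1 (chr17:34000348-34000547, minus strand), B2m (chr2:122147487-122147685, plus strand), H2-Aa (chr17:34287824-34288023, minus strand) and H2-Eb1 (chr17:34305667-34305866, plus strand), and all run 5′ to 3′ towards the start.
H2-K1: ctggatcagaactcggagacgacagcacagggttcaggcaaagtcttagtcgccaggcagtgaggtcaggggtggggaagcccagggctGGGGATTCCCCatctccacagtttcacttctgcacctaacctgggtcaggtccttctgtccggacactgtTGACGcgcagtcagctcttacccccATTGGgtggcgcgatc
B2m: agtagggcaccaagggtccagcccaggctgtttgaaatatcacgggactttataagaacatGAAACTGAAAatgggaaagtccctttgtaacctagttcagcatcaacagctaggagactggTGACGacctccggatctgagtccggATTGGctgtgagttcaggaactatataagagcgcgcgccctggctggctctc
H2-Aa: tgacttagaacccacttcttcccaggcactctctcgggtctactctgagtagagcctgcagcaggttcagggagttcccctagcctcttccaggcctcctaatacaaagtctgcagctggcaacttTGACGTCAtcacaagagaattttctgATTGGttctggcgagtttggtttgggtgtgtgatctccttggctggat
H2-Eb1: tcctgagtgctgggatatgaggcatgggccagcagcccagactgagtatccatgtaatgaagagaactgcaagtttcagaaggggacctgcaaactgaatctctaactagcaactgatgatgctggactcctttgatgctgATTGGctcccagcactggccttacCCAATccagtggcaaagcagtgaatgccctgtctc

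For H2-D1 (chr17:35262993-35263022) and Tap1 (chr17:34187458-34187487), both on the plus strand, only the 30 bases at the CRE core are shown, because annotated transcripts reach into their windows.
H2-D1: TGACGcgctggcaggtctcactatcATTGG
Tap1: cccagagacaggTGACGacagagggtcctg

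The CRE core was present in 5 of the 7 windows (H2-K1, H2-D1, B2m, Tap1 and H2-Aa), against 17.8% of all 32851 windows in the table. The full CRE was present in the window of H2-Aa alone among the 7, against 1.55% of all windows. The Y box core was present in all 7, against 33.8%. The enhancer site was found in H2-K1 and H2-D1 and in 0.0304% of all windows, and the interferon core in B2m and 2.98%. The letters of the enhancer site are those of the class I enhancer itself, so its presence in class I genes is no independent result. In H2-K1, H2-D1 and B2m the first bases of the CRE core and of the following ATTGG lay 25 bases apart, and in H2-Aa 26. Such a pair, 24 to 27 bases apart, was found in 71 of the 32851 windows (0.216%), a spacing chosen after the sequences were seen. These matches describe letters only, and no binding was measured.

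**Figure D1:**
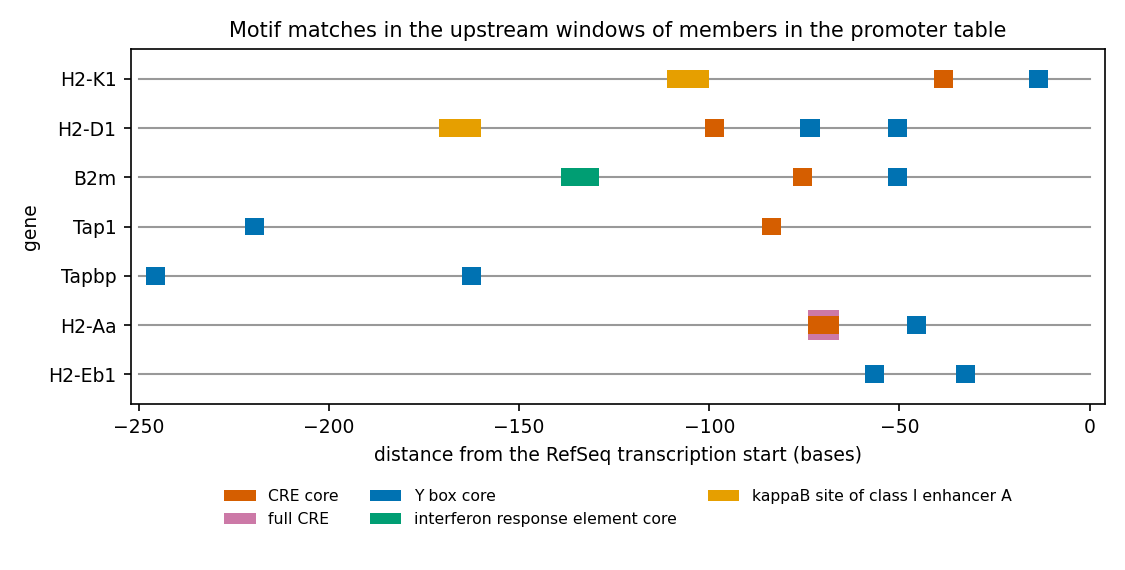
Motif matches by distance from the RefSeq start (bases) in the 250 upstream bases of the 7 members in the promoter table, with 1 row per gene and 1 colour per motif. H2-K1, H2-D1, B2m and H2-Aa share a CRE core followed by a Y box core 25 or 26 bases on, while Tapbp and H2-Eb1 show Y box cores without a CRE core.

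By level, the class I genes lay far above the other classes in both libraries. Levels are given as counts scaled to library size (CPM) per kilobase of annotated exon, so that genes of different length can be compared, and where 2 values are given the knockout-labelled library comes first. B2m stood at 3449 in the knockout-labelled and 3652 in the wildtype library. H2-K1 followed at 435 and 479.8, and H2-D1 at 379 and 429. The light chain gene was thus 7.93 and 7.61 times as high as H2-K1, while the heavy chain genes were within 1.15 and 1.12 times of each other.

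Peptide loading genes were lower and unequal. Tap2 stood at 70.8 in the knockout-labelled and 65.0 in the wildtype library, while its partner Tap1 stood at 3.84 and 4.23. Tapbp stood at 4.97 and 4.46. Tap2 was therefore 18.4 and 15.4 times as high as Tap1, although the proteins form a pair. Tap1 and Tapbp overlapped in their counting intervals in the wildtype library (3.90 to 4.58 and 4.05 to 4.90), so their order is not set there. Tap1 and Tapbp each have 2 curated RefSeq transcripts and Tap2 has 1. Of the other members, H2-K1 and Cd74 also have 2, and B2m, H2-D1, H2-Ab1, H2-Aa and H2-Eb1 have 1. Over all coding genes with at least 1 read, the median was 16.1 CPM for genes with 1 curated transcript and 5.03 for genes with 2 or more. The part of transcript number in the differences in level between members, such as Tap1 and Tap2 or Cd74 and H2-Ab1, was not tested.

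Class II genes spanned the widest range of levels, with H2-Ab1 and Cd74 above Tap1 and Tapbp and the other 2 below. H2-Ab1, the beta chain gene, stood at 25.6 in the knockout-labelled and 25.9 in the wildtype library, and H2-K1 was 17.0 and 18.5 times as high. Cd74 stood at 14.04 and 11.9, which is 0.550 and 0.458 times the level of H2-Ab1. H2-Eb1 stood at 0.922 and 0.739. H2-Aa, the alpha chain that pairs with the H2-Ab1 product, was nearly without reads, at 0.0219 (95% counting interval 0.00266 to 0.0793) and 0.0398 (0.0108 to 0.102). The beta chain gene thus lay far above the alpha chain gene in both libraries, on 2 and 4 reads of H2-Aa against 1575 and 1758 of H2-Ab1. Both genes have 1 curated RefSeq transcript. Of the distinct 50-base words in the transcripts of H2-Aa, 0.514% also occur in transcripts of other genes, and for H2-Ab1 it was 0%. The part of the authors' counting of unique reads in the low count of H2-Aa was not tested. The order of the 10 levels was the same in both libraries.

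**Figure D2:**
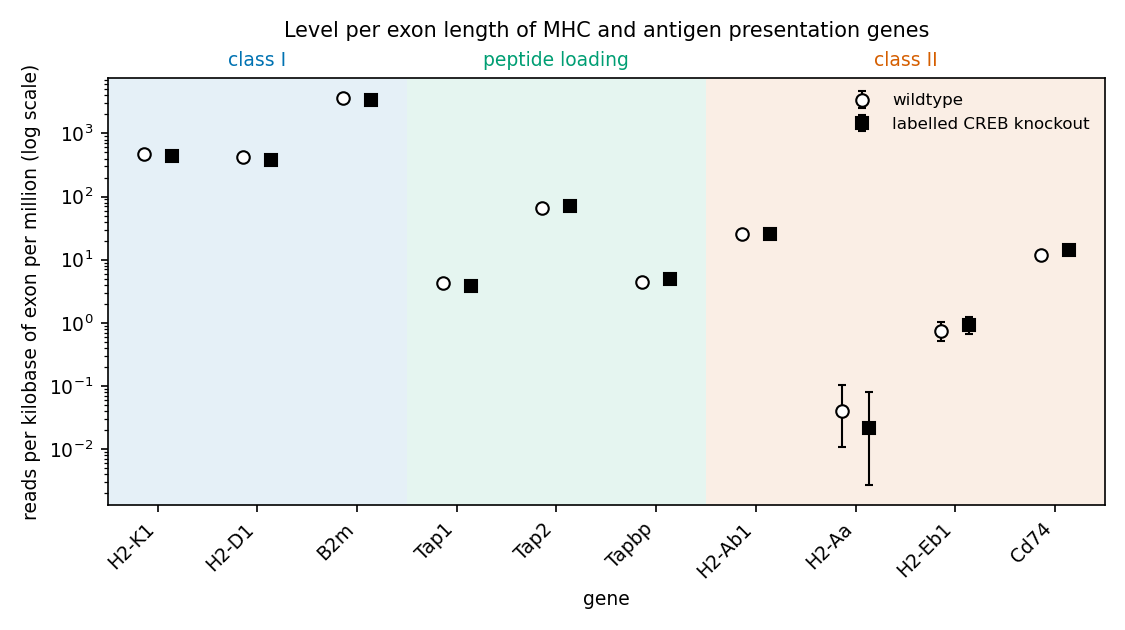
CPM per kilobase of exon (log axis) for the 10 genes, grouped by class, with open circles for the wildtype library and filled squares for the knockout-labelled library. Bars are exact Poisson 95% intervals for counting error. B2m is highest at 3449 and 3652 and H2-Aa lowest at 0.0219 and 0.0398, and the circle and square of each gene lie close together beside these distances.

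Against these distances in level, the ratios between the libraries were small. With 1 library per genotype there is no replicate error and no test. Each ratio is the knockout-labelled library over wildtype with a 95% interval for counting error only, and PCR copies without molecular identifiers can make it too narrow. Creb1 itself had 25 reads in the knockout-labelled and 13 in the wildtype library, a mean of 0.766 CPM. So few reads of the targeted gene do not bear out the label and cannot refute it, and each direction refers to the label. The mean of both libraries reached 1 CPM for 9 members. Of these, 0 were 1.5-fold apart with an interval that excluded 1, against 3.98% of the 10462 genes at that level. At a limit of 1.2-fold the count was also 0, against 11.7% of genes. H2-Aa was below 1 CPM and is described by its reads. Intervals lay below 1 for 3 members (19.5% of genes) and above 1 for 2 (16.2% of genes). Counting intervals narrow as reads rise, so these shares over all genes, here and for the lists below, are not matched for level. The median log2 ratio of the 10 members, H2-Aa included, was -0.05. Over all genes of 1 CPM or more it was -0.01, a set without H2-Aa, so these medians are not of like sets.

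All 3 class I genes had a ratio a little below 1, with intervals below 1 under each of the 4 library scalings tried. H2-K1 (chromosome 17, 33996017 to 34000347, GRCm38) had 30657 reads in the knockout-labelled and 37295 in the wildtype library, or 1277 and 1409.8 CPM. Its ratio was 0.906 (0.892 to 0.920). H2-D1 (chromosome 17, 35262730 to 35267499) had 23446 and 29251 reads, or 977 and 1106 CPM, and a ratio of 0.883 (0.868 to 0.899). B2m (chromosome 2, 122147686 to 122153083) had 71194 and 83077 reads, or 2966 and 3140.4 CPM, and a ratio of 0.945 (0.935 to 0.954). The light chain gene was thus the least displaced of the class, and its ratio was 1.04 times that of H2-K1 (1.02 to 1.06) and 1.07 times that of H2-D1 (1.05 to 1.09).

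These ratios were larger than counting error but of the size seen for other abundant genes. Log2 ratios had an SD of 0.12 over the 2162 genes of 100 CPM or more, and those of H2-K1, H2-D1 and B2m were -0.14, -0.18 and -0.08. Among the 7215 genes of 10 CPM or more, 15.5% had a lower ratio than H2-K1, 10.5% a lower ratio than H2-D1 and 29.1% a lower ratio than B2m. Summed over the class, 125297 reads in the knockout-labelled library stood against 149623 in the wildtype library, a ratio of 0.923 (0.916 to 0.930). Heavy chain genes of the mouse are near-identical in part. Of the distinct 50-base words in their transcripts, 9.63% for H2-K1 and 12.8% for H2-D1 also occur in other genes, against 0% for B2m. The counts of the heavy chain genes are thus less certain than that of B2m. Shared words are not particular to them, with 23.2% for Tapbp, 11.6% for Tap2 and 3.33% for Tap1.

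The peptide loading genes did not share a direction. Tap1 (chromosome 17, 34187553 to 34197225) had 505 reads in the knockout-labelled and 613 in the wildtype library, or 21.0 and 23.2 CPM. Its ratio was 0.908, with an interval that includes 1 (0.806 to 1.02). Tap2 (chromosome 17, 34203527 to 34216321) had 6422 and 6500 reads, or 268 and 246 CPM, and a ratio of 1.09 (1.05 to 1.13). Tapbp (chromosome 17, 33915899 to 33929292) had 433 and 428 reads, or 18.0 and 16.2 CPM, and a ratio of 1.11 (0.973 to 1.28). The ratio of Tap2 was 1.2 times that of its partner Tap1 (1.06 to 1.36). Among the 7215 genes of 10 CPM or more, 84.2% had a lower ratio than Tap2 and 16.3% a lower ratio than Tap1. Tap2 supplied 86.2% of the reads of this class in the wildtype library, so the summed ratio of 1.08 (1.04 to 1.11) is mostly that of Tap2.

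Exons of other genes overlap these loci, and no source used here gives the strand setting of the counting. The overlap with the immunoproteasome gene Psmb9, on the other strand, covers 3.87% of the exon length of Tap1. The antisense gene Gm19412 covers 24.9% of that of Tapbp, and the coding gene Zbtb22, on the same strand, covers 4.11%. Gm15821, a noncoding gene on the other strand, covers 14.1% of that of Tap2.

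Among the class II genes, Cd74 alone had an interval that excluded 1. H2-Ab1 (chromosome 17, 34257689 to 34269419) had 1575 reads in the knockout-labelled and 1758 in the wildtype library, or 65.6 and 66.5 CPM, and a ratio of 0.987 (0.922 to 1.06). Cd74 (chromosome 18, 60803848 to 60812652) had 566 and 527 reads, or 23.6 and 19.9 CPM, and a ratio of 1.18 (1.05 to 1.34). The ratio of the invariant chain gene was 1.2 times that of H2-Ab1 (1.04 to 1.38), and 95.5% of the 7215 genes of 10 CPM or more had a lower ratio than Cd74. H2-Eb1 (chromosome 17, 34305867 to 34316674) had 43 and 38 reads, or 1.79 and 1.44 CPM, and a ratio of 1.24 whose interval (0.787 to 1.98) includes 1. H2-Aa (chromosome 17, 34282744 to 34287823) had 2 and 4 reads and a ratio of 0.603 (0.0499 to 3.85), so no direction can be read at this depth.

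**Figure D3:**
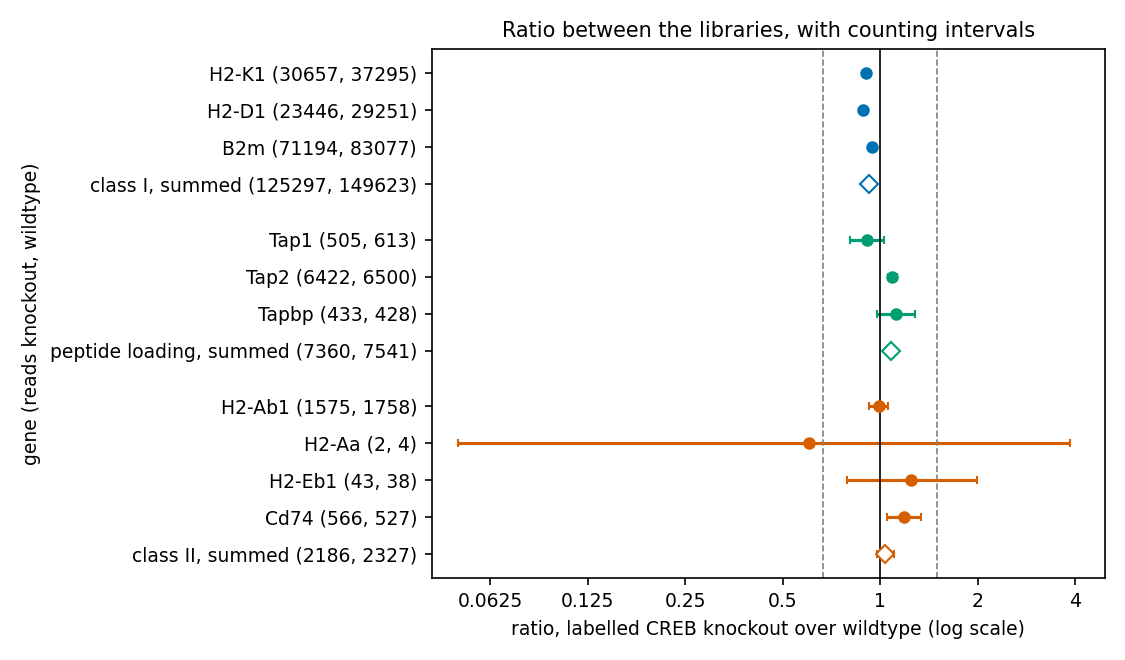
Ratio of the knockout-labelled library to wildtype (log axis) for each gene (filled circles) and for the reads summed over each class (open diamonds), with exact 95% counting intervals and the reads of both libraries in the labels. The dashed lines mark 1.5-fold. Class I genes lie between 0.883 and 0.945 with narrow intervals, the other classes lie on both sides of 1, and the interval of H2-Aa runs from 0.0499 to 3.85.

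Set against each other by summed reads, the classes differed in ratio by 1.2-fold or less. The ratio of summed reads for class II, 1.04 (0.976 to 1.10), was 1.12 times that of class I (1.06 to 1.19). The ratio for peptide loading was 1.17 times that of class I (1.13 to 1.205) and 1.04 times that of class II (0.971 to 1.11), an interval that includes 1. These comparisons do not depend on how the libraries were scaled. They rest on the most abundant gene of each class, since B2m supplied 55.5%, Tap2 86.2% and H2-Ab1 75.5% of the reads of its class in the wildtype library. With members weighted equally, the class II ratio was 0.968, on the other side of 1, and 1.06 times that of class I. The peptide loading ratio was then 1.13 times that of class I. Without H2-Aa, left out after the data were seen, the equally weighted class II ratio was 1.13, or 1.24 times that of class I.

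**Figure D4:**
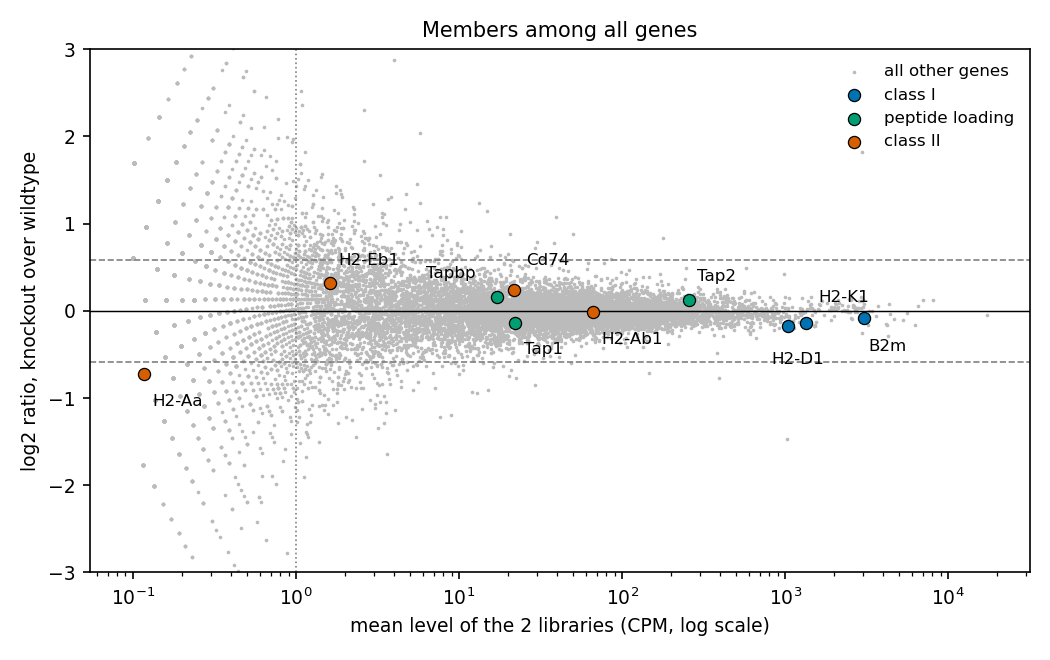
Log2 ratio against mean CPM (log axis) for genes whose mean was at least 0.1 CPM and a log2 ratio within 3 of 0, with the members coloured by class. Dashed lines mark 1.5-fold and the dotted line 1 CPM. The 9 members right of the dotted line lie inside the dashed lines, and H2-Aa lies left of it among genes with few reads.

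Of 25 non-classical class I and class I-like genes, 11 reached a mean of 1 CPM, 1 was 1.5-fold lower (1.5% of all genes) and 0 were 1.5-fold higher (2.48%). Intervals lay below 1 for 5 of the 11 (19.5% of all genes) and above 1 for 1 (16.2%), and the median log2 ratio was -0.16. The T cell markers, which are outside this pathway, had 5 of 8 intervals below 1 and 2 above. The lower gene was H2-Q7, which encodes the non-classical antigen Qa-2, with 77 reads in the knockout-labelled library, 149 in the wildtype library and a ratio of 0.571 (0.427 to 0.755). H2-T23, which encodes the CD94/NKG2 ligand Qa-1, had 4444 and 5470 reads and a ratio of 0.895 (0.861 to 0.932). H2-Q4 had 4213 and 4988 reads and a ratio of 0.931 (0.893 to 0.970). H2-T22 and H2-M3, the presenter of formylated peptides, had ratios of 0.793 (0.690 to 0.911) and 0.768 (0.636 to 0.924). Mr1, the presenter of vitamin B metabolites, had a ratio of 0.831 (0.685 to 1.01). H2-K2, annotated as a transcribed pseudogene, went the other way at 1.15 (1.01 to 1.31). H2-T10, H2-Bl and Cd1d2 of this list are annotated as polymorphic pseudogenes. Many of these genes are close copies of each other, so their single counts are uncertain.

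Of 18 genes listed for class I peptide supply and folding, 17 reached a mean of 1 CPM. None of these was 1.5-fold apart with an interval that excluded 1 (3.98% of all genes). The other listed gene, Cd207, had 0 reads in both libraries. Intervals lay below 1 for 7 (19.5% of all genes) and above 1 for 0 (16.2%), with a median log2 ratio of -0.07. Several of these genes have many reads, which narrows their intervals, and no share matched for level was computed. The chaperone gene Calr had 25323 reads in the knockout-labelled and 32115 in the wildtype library, and a ratio of 0.869 (0.855 to 0.884). Pdia3, the disulfide isomerase of the loading complex, had a ratio of 0.898 (0.881 to 0.915). Erap1, which trims peptides in the endoplasmic reticulum, had a ratio of 0.860 (0.795 to 0.930). The proteasome activator gene Psme3 and the protease gene Ide had ratios of 0.899 (0.877 to 0.921) and 0.893 (0.847 to 0.941), and the translocon gene Sec61a1 had 1.0 (0.977 to 1.03). The immunoproteasome subunit genes Psmb8, Psmb9 and Psmb10, named after their values were seen, had ratios of 1.0, 0.949 and 1.0, each with an interval that includes 1.

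Of 19 symbols for class II partners and endosomal processing, 14 reached a mean of 1 CPM. None of these was 1.5-fold apart by that rule (3.98% of all genes). Intervals lay below 1 for 2 (19.5% of all genes) and above 1 for 1 (16.2%), with a median log2 ratio of -0.02. Sppl2a, the protease that removes the last fragment of the invariant chain, had a ratio of 0.849 (0.798 to 0.904). The cathepsin genes Ctsb and Ctsd had ratios of 0.969 (0.940 to 0.999) and 1.02 (0.983 to 1.05), and Ctss, on 69 and 100 reads, had 0.762 (0.551 to 1.04). Ifi30, a thiol reductase, had a ratio of 0.981 (0.907 to 1.06). The peptide editor genes H2-DMb1 and H2-DMb2 had 75 and 61 and then 31 and 20 reads, with ratios of 1.35 (0.954 to 1.93) and 1.69 (0.943 to 3.16). H2-Ob, which encodes a chain of the editor's inhibitor, had a ratio of 0.736 (0.518 to 1.04). The partner chains had more reads and are named after their values were seen. H2-DMa, of the editor, had 749 and 841 reads and a ratio of 0.982 (0.888 to 1.08). H2-Oa, of the inhibitor, had 273 and 252 reads and a ratio of 1.19 (1.002 to 1.42).

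Of 21 regulator genes of these promoters, 16 reached a mean of 1 CPM, 0 were 1.5-fold apart by the same rule (3.98% of all genes), and the median log2 ratio was 0.05. Intervals lay above 1 for 4 (16.2%) and below 1 for 2 (19.5%). Nlrc5, the class I coactivator, had 2424 reads in the knockout-labelled and 2446 in the wildtype library, and a ratio of 1.09 (1.03 to 1.16). Ciita, the class II coactivator, had 0 reads in either library, which allows up to 3 reads, or 0.125 and 0.113 CPM, by counting alone. Rfx5 had a ratio of 1.15 (1.07 to 1.24), while its partners Rfxap and Rfxank had 0.936 (0.855 to 1.02) and 0.706 (0.386 to 1.25). Among the NF-Y subunits, Nfyb had a ratio of 1.09 (1.04 to 1.15) and Nfya 0.980 (0.703 to 1.36), and Nfyc had 0 reads and 1 read. Atf1, a close relative of Creb1, had a ratio of 0.928 (0.880 to 0.979). Ciita, Nfya, Nfyc and Creb1 have 5, 5, 6 and 3 curated RefSeq transcripts, and the part of this in their low counts was not tested.

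Factors of the interferon and NF-kappaB pathways lay near 1. Irf2 and Irf8 had ratios of 1.03 (0.986 to 1.08) and 1.05 (0.998 to 1.11). The interferon gamma receptor genes Ifngr1 and Ifngr2 had 1.04 (0.982 to 1.09) and 0.995 (0.935 to 1.06). The NF-kappaB genes Nfkb1 and Rela had 0.980 (0.961 to 0.999) and 1.08 (1.04 to 1.11). Zbtb32 and Prdm1, repressors of class II transcription in B cells, had 1.07 (0.996 to 1.14) and 1.48 (0.937 to 2.40). Ifng itself had 11 reads in the knockout-labelled and 6 in the wildtype library, and Irf1, which has 3 curated transcripts, had 5 and 3.

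**Figure D5:**
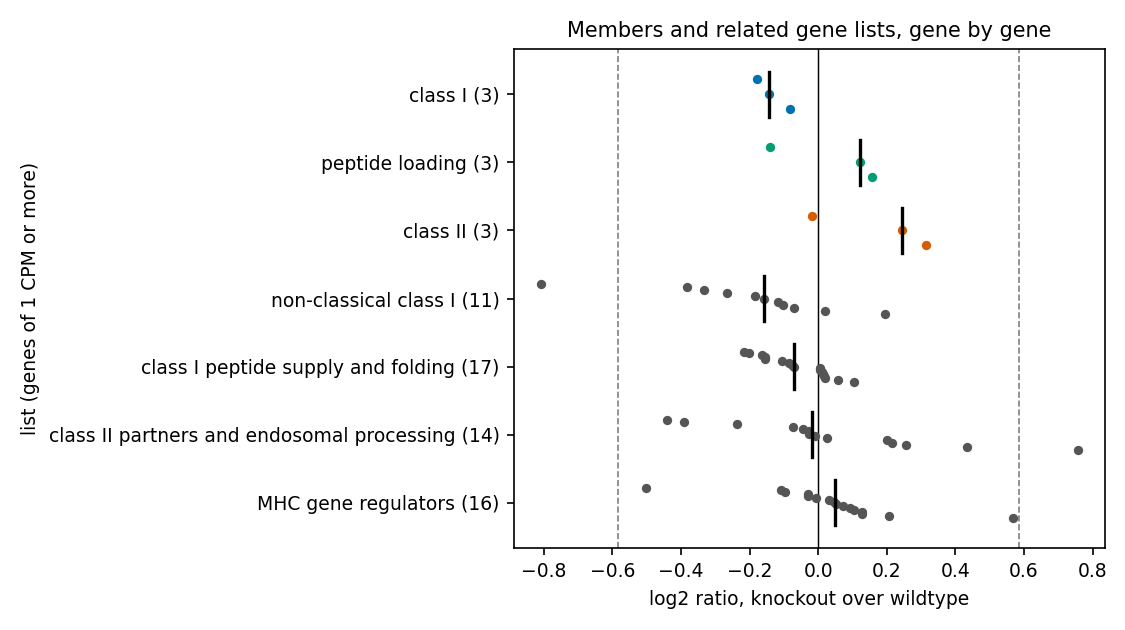
Log2 ratio of each gene with a mean of at least 1 CPM (dots), by member class and related list, with black bars for medians, dashed lines for 1.5-fold and the number of genes in brackets. H2-Aa is not drawn. Class I genes lie left of 0, and H2-Q7 lies left of the lower dashed line. H2-DMb2 lies beyond the upper one with an interval that includes 1.

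Few reads came from markers of the cells that usually make class II molecules. In bulk RNA, fewer cells of a type and less RNA per cell cannot be told apart. Of 10 B cell markers, 5 had reads, with 7.42 CPM in sum in the knockout-labelled and 9.07 in the wildtype library. Ebf1 gave most of these with 122 and 186 reads, Cd79a had 26 in each, and Ms4a1, Pax5, Cd22, Blk and Fcer2a were at 0. Of 12 macrophage and monocyte markers, 5 had reads, with 9.87 and 11.4 CPM in sum, mostly Cd68, and Adgre1, Lyz2, Itgam, C1qa, C1qb, C1qc and Cd163 were at 0. Of 9 dendritic cell markers, 7 had reads, with 739.7 and 790.1 CPM in sum. Nearly all came from Ccr7 and Batf3, which activated T cells are also known to express. Of the others, Xcr1 had 43 and 45 reads, Zbtb46 19 and 15, Itgax 7 and 12, Flt3 6 and 12 and Cd209a 2 and 0. Clec9a and Siglech were at 0. Of 4 natural killer cell markers, Eomes had 10 and 15 reads and the others were at 0. The T cell markers Cd3e and Cd4 had 10434 and 19552 reads in the knockout-labelled and 11102 and 23125 in the wildtype library, Cd8a was at 0 and Cd8b1 had 234 and 237 reads. Lck, a kinase gene of every T cell, had only 492 and 642 reads and the T cell receptor gene Trac was at 0, so a 0 in these files does not show that a cell type was absent. The part of these other cells in the class II reads was not tested.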

How the data were processed

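Both libraries were used in full. Per the file headers, the deposited values are counts of uniquely assigned reads per gene symbol, not normalized by the authors, and each total equals the sum of its file. Per the submitters' processing notes, bcl2fastq, HTSeq and mm10 were used. No source used here gives the aligner, annotation or strand setting. A gene listed in 1 file only was taken as 0 in the other.

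Library sizes came from trimmed mean of M-values (TMM) factors in edgeR 4.0.16 under R 4.3.3. Ratios have a prior count of 0.5, except sums. Ratio intervals are exact conditional binomial (Clopper-Pearson) intervals, level intervals exact Poisson and ratios of ratios exact conditional odds ratios. All cover counting error only, and with 1 library per group no p-value was computed. The filter was a mean of 1 CPM. Exon lengths, positions and overlaps are from GENCODE M21 (GRCm38), which held 140 of 145 listed symbols. Promoter windows and curated transcripts are from RefSeq (GRCm38.p6). The steps were tested on simulated counts in Python 3.11.15 with scipy 1.17.1.

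The members and gene lists were chosen with earlier results of these data known. The genes named are the members, all regulators and, from each other list, up to 4 genes with the largest ratios and up to 4 with the most reads. Results for some genes that this rule or the marker lists take are not reported here. Alternatives were scaling by total counts, DESeq2 1.42.0 size factors and upper quartiles, thinned counts, equal weights, other filters, limits, prior counts and lengths.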

Additional observations from a re-analysis of the deposited data

How the results depend on the processing

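No paired analysis was possible because each genotype has 1 library, and for the same reason no library could be left out. The ratios of the 10 members moved by less than their counting intervals in all 50 recalculations with other scalings, thinned counts and a prior count of 5. The count of members 1.5-fold apart stayed at 0 under every scaling, filter and limit tried. The stricter settings, a 2-fold limit and a mean of 10 CPM or more, could only leave it at 0. The scalings differed by at most 0.0077 in log2 ratio from the TMM factors. With members weighted equally instead of by reads, the ratio was 0.911 for class I, 1.03 for peptide loading and 0.968 for class II, which turned the class II value below 1. The equally weighted ratio of class II was 1.06 times that of class I, and that of peptide loading 1.13 times. Without H2-Aa, whose 2 and 4 reads set the class II value (an alternative added after the data were seen), the class II ratio was 1.13 with equal weights, and 1.24 times that of class I. The number of genes 1.5-fold apart was 416, and it was 821 with no filter, 40 at a mean of 10 CPM or more, 116 with a 2-fold limit and 1221 with a 1.2-fold limit. Levels depend on the length used, and 17 of 20 recalculated levels left their counting interval. With coding length the wildtype level was 83.6 for H2-Ab1 and 0.197 for H2-Aa. The order of the 10 wildtype levels changed only with the longest transcript, where Tap1 passed Tapbp. Depth limits H2-Aa and H2-Eb1, and the spread between cultures is unknown for every gene.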

Other observations

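The Q region of the mouse MHC holds H2-Q6, H2-Q7, H2-Q8 and H2-Q9, close copies of each other that encode non-classical class I molecules. Each had fewer reads in the library labelled knockout. H2-Q6 had 3 reads there and 11 in the wildtype library, H2-Q8 had 6 and 20, and H2-Q9 had 1 and 3, beside the 77 and 149 of H2-Q7. The ratio was 0.332 (0.0538 to 1.14) for H2-Q6 and 0.348 (0.109 to 0.854) for H2-Q8, both below the filter of 1 CPM. Of the other genes of this region in the list, H2-Q1 had 10 and 16 reads and a ratio of 0.699 (0.279 to 1.61), and H2-Q2 had 9 and 17 reads and a ratio of 0.596 (0.229 to 1.38). H2-Q4, with 4213 and 4988 reads, had a ratio of 0.931 (0.893 to 0.970), and H2-Q10, with 216 and 250, had 0.952 (0.790 to 1.15). The grouping was made after the values were seen, and reads of close copies may be split or lost in counting.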
